A study of Homo sapiens with 42 samples.

Results

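Collagens are the proteins that make up most of the fibrous extracellular matrix, and each is built from 3 chains that wind into a triple helix. The genes described here are those whose symbol in the deposited count table has the form COL, a number, A and a number, which covers the genes for collagen chains and no others. There were 44 of them among the 28266 symbols of the table. By textbook class, 11 encode fibrillar collagens, 9 encode network-forming collagens, 10 encode FACITs (fibril-associated collagens with interrupted triple helices) and 14 encode others, which here are the beaded-filament, anchoring-fibril, multiplexin, transmembrane and less studied chains.

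Fibroblasts are the main makers of collagen in connective tissue, and type I and type III collagen are their main fibrillar products. Procollagen chains are hydroxylated and folded in the endoplasmic reticulum, leave it in coated vesicles, pass through the Golgi and lose their propeptides outside the cell, where fibrils form, are cross-linked and are bound by FACITs and small proteoglycans. Type IV collagen forms the sheets of basement membranes and type VI collagen forms beaded filaments around cells. Senescent fibroblasts have stopped dividing for good, release inflammatory factors and proteases, and are known to remodel the matrix around them.

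RNA was measured by poly(A) RNA-seq in 42 libraries of IMR90 cells, an established strain of human lung fibroblasts, in 12 groups. IMR90 ER:RAS cells, which carry an oestrogen receptor fusion of oncogenic RAS, received 100 nM 4OHT, which switches the fusion on and leads to oncogene-induced senescence (OIS), or DMSO (3 libraries for each combination with an shRNA). IMR90 cells without the fusion received bleomycin, a DNA-damaging agent, at 50 µg/ml for 24 h, or DMSO (4 libraries for each combination). All groups were cultured for 7 days, were then given doxycycline at 1 µg/ml to induce a control shRNA, COPB2 shRNA 1 or COPB2 shRNA 2, and were collected 72 h later, at day 10. The COPB2 protein is part of the coat of COPI vesicles, which carry cargo within the Golgi and back to the endoplasmic reticulum. Every group thus had doxycycline and an shRNA, the senescence model cannot be told apart from the cell line, and the labels do not say whether libraries of a group came from separate cultures, so p-values measure the spread between these libraries only.

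Total counts ran from 13148194 to 23597310 per library. COPB2 stood at 267 to 620 CPM (counts over the library size after TMM scaling) with the control shRNA (14 libraries) and at 33.9 to 122 CPM with either COPB2 shRNA (28 libraries), without overlap. Of the 10 fibroblast markers, 3 are collagens described here (COL1A1, COL1A2 and COL3A1). The other 7 were at 3.37 CPM or more in every library, the lowest being LUM, which reached 343 CPM, and DCN at 6.66 CPM or more, and the 5 epithelial markers summed to at most 2.01 CPM in any library. The 5 endothelial markers summed to 1.59 to 5.26 CPM in the ER:RAS libraries with DMSO and to 74.3 to 125 with 4OHT. CLDN5 reached 74.9 CPM and TIE1 53.9, while the defining markers PECAM1 and CDH5 stayed at or under 2.91 and 3.10 CPM in every library, and the part of these levels in the OIS results was not tested. The 5 leukocyte markers, mainly the lysosomal CD68, summed to 12.2 to 43.4 CPM in DMSO libraries and 54.4 to 120 in senescent ones, with PTPRC at or under 1.96, and the 5 muscle markers, mainly DES, to 9.28 to 36.7 and 0.132 to 6.31. The bleomycin libraries numbered replicate 4 stood apart in inflammatory transcripts. CXCL8, which encodes interleukin-8, was at 1146, 8648 and 4268 CPM in them (control shRNA, COPB2 shRNA 1 and 2) and at 37.0 to 220 in the other bleomycin libraries.

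A few chains made up most of the collagen transcripts. Of the 44 genes, 24 had more than 3 counts in all 42 libraries, 13 averaged at least 100 CPM and 13 averaged under 1 CPM. Per kilobase of transcript, the most abundant in ER:RAS cells with DMSO and the control shRNA were COL6A2 at 1119 ± 249 CPM per kb (SD, n = 3), COL1A2 at 1056 ± 164, COL6A1 at 806 ± 232, COL1A1 at 689 ± 124 and COL3A1 at 453 ± 63.3. COL1A1 and COL1A2 encode the chains of type I collagen, COL3A1 the chain of type III, and COL6A1, COL6A2 and COL6A3 the chains of type VI. In this order COL6A2 and COL1A2 lay within their SDs of each other, as did COL6A1 and COL1A1, while COL6A1 was below COL1A2 and COL3A1 below COL1A1 by more than either SD. In IMR90 cells with DMSO the order per kilobase was COL1A2 at 1403 ± 202 CPM per kb (SD, n = 4), COL6A2 at 916 ± 183, COL1A1 at 907 ± 145, COL3A1 at 693 ± 78.4 and COL6A1 at 691 ± 42.4, where COL6A2 was below COL1A2 and COL3A1 below COL1A1 by more than either SD, COL6A2 and COL1A1 could not be ordered, and neither could COL3A1 and COL6A1.

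**Figure D1:**
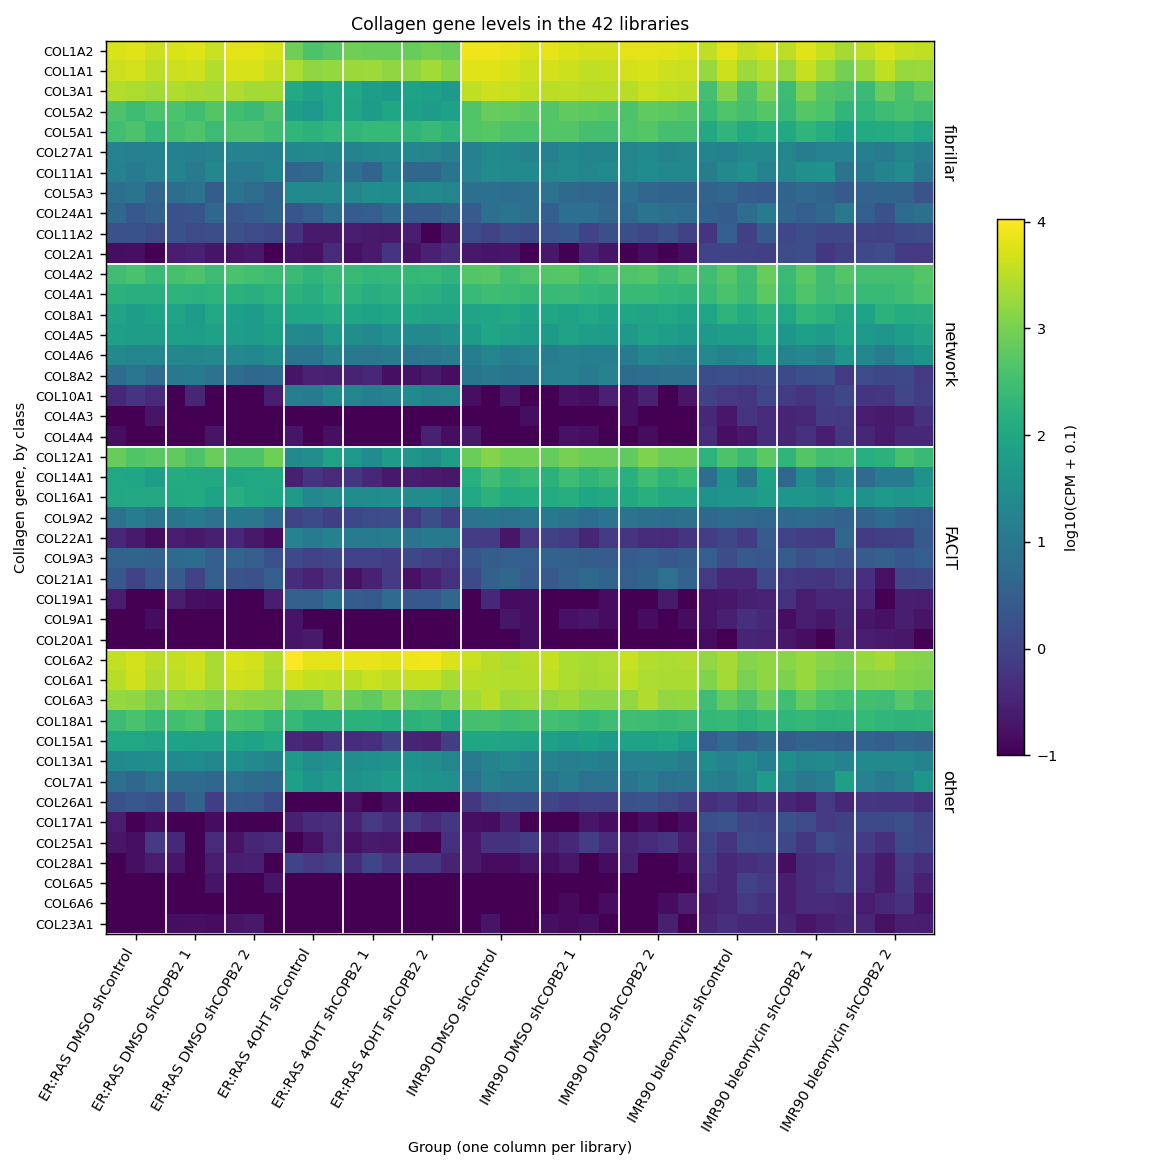
Each row is 1 of the 44 collagen genes, grouped by class, and each column 1 of the 42 libraries, grouped by cell line, treatment and shRNA, and the colour gives log10(CPM + 0.1). COL1A2 ran from 7906 CPM down to 424 CPM across libraries, and the faintest rows, such as COL6A6, were at or near 0 outside bleomycin-treated cells.

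The share of all counts that fell on collagen genes was 2.29% ± 0.216 (SD, n = 3) in ER:RAS cells with DMSO and the control shRNA and 1.27% ± 0.109 in OIS. In IMR90 cells it was 3.04% ± 0.360 (SD, n = 4) with DMSO and 1.53% ± 0.442 with bleomycin. The libraries of treated and untreated cells did not overlap in either line. The make-up of that share moved in OIS by more than the spread of the libraries. COL1A1, COL1A2 and COL3A1 together took 51.6% ± 1.66 of collagen counts in ER:RAS cells with DMSO and 15.5% ± 1.08 in OIS, where COL6A1, COL6A2 and COL6A3 went from 37.1% ± 2.89 to 76.7% ± 1.44. In bleomycin-treated cells the first 3 held 56.9% ± 3.05 against 57.1% ± 2.57 with DMSO, and the type VI chains 26.2% ± 2.67 against 29.6% ± 2.38. The first difference was smaller than either SD and the second was larger than either, with overlapping libraries. The sum of the first 3 hides that their shares of all counts moved unequally, while the collagen total fell as well. COL3A1 took 0.329 to 0.487% of all counts with DMSO and 0.038 to 0.128% with bleomycin. COL1A2 took 0.627 to 0.863% with DMSO and 0.385 to 0.670% with bleomycin. As parts of all counts, these values do not show that COL1A2 became a smaller part of collagen counts. These shares weight long transcripts more than short ones, are parts of a whole, and are given without a test. In bulk RNA, fewer cells that make a collagen and less of its RNA per cell cannot be told apart.

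**Figure D2:**
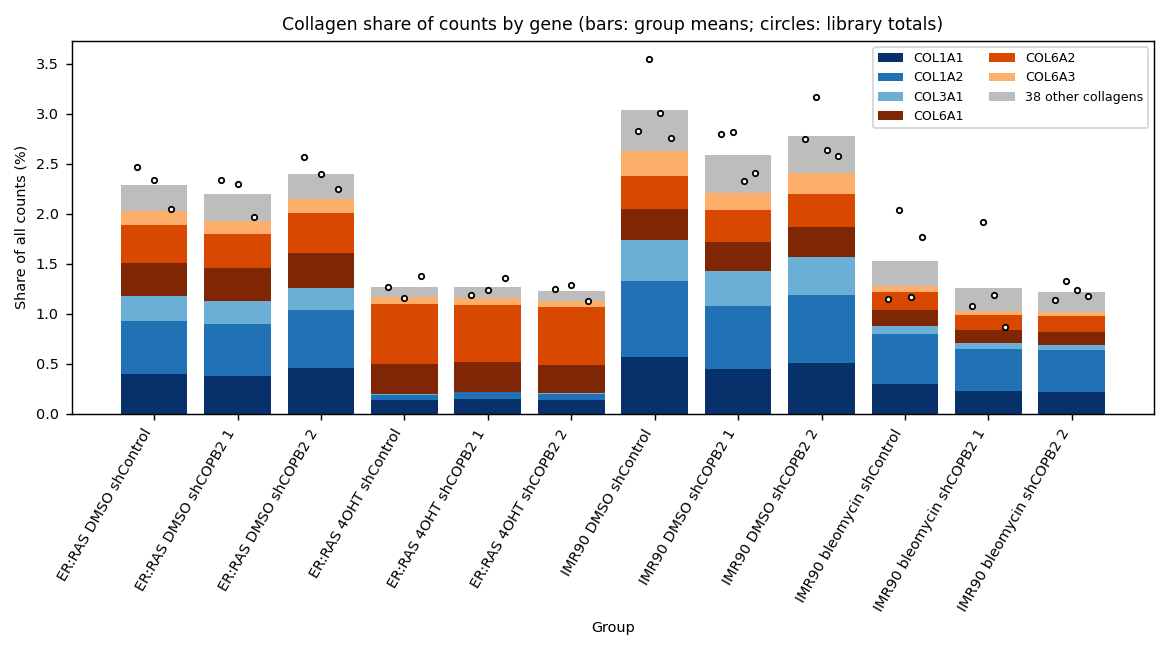
Bars give the mean share of all counts (%) that fell on collagen genes in each of the 12 groups, split into COL1A1, COL1A2, COL3A1, COL6A1, COL6A2, COL6A3 and the 38 other collagens, and circles give the total of each library. The bars of 4OHT-treated ER:RAS cells (control shRNA 1.27%) consist largely of type VI chains. In bleomycin-treated cells (control shRNA 1.53%, with DMSO 3.04%) COL1A1, COL1A2 and COL3A1 together hold about the same part as with DMSO. COL3A1 alone is a smaller part of all counts there, at 0.038 to 0.128% against 0.329 to 0.487% (control shRNA).

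The first comparison asked which collagen genes changed in each senescence model. Among cells with the control shRNA, 7 collagen genes were higher and 18 lower in OIS of 34 that passed the filter on low counts (edgeR quasi-likelihood test, adjusted p under 0.05, Benjamini-Hochberg over all genes tested). Over all 14297 genes tested in these libraries, 15.4% were called higher and 20.2% lower. Of the collagens called higher, COL10A1, COL19A1, COL22A1 and COL28A1 passed the filter only through the 4OHT groups, which set their direction. In the same way COL8A2, COL11A2, COL14A1, COL15A1, COL21A1 and COL26A1, called lower, passed only through the DMSO groups. The median log2 fold change was -0.88 over the 34 collagens and -0.08 over all genes. By class, 6 of 8 FACITs were lower and 2 higher (median -2.15), 6 of 10 fibrillar collagens lower and 1 higher (-1.08), 3 of 7 network collagens lower and 1 higher (-0.44), and 3 of 9 others lower and 3 higher (0.13).

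In bleomycin-induced senescence 5 collagen genes were higher and 18 lower of 36 tested, where 15.4% of all 14783 genes were called higher and 15.8% lower. The median was -0.47 over these collagens and -0.01 over all genes. Lower were 5 of 7 FACITs (none higher, median -1.47), 6 of 11 fibrillar collagens (1 higher, -0.65), 1 of 7 network collagens (1 higher, 0.49) and 6 of 11 others (3 higher, -0.62). The filter keeps a gene that reaches it in 1 group alone, so a collagen that was near 0 in untreated cells and passed had to be higher in another group. The count of 5 higher also moved with the processing, to 10 without the filter, 12 with the Wald test of DESeq2, 3 when only the 8 libraries compared were fitted, and 8 without replicate 2 of the bleomycin group.

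In both models 14 of the 44 genes were lower (COL1A1, COL1A2, COL3A1, COL5A1, COL5A2, COL8A2, COL9A2, COL12A1, COL14A1, COL15A1, COL16A1, COL18A1, COL21A1 and COL26A1) and 1, COL10A1, was higher. COL5A3 and COL6A2 were higher in OIS and lower with bleomycin. The shares of all genes that were lower in both, higher in both or opposite were not counted, so these counts stand without a background. Only in OIS did the test call COL7A1 and COL22A1 (higher) and COL4A5, COL4A6, COL9A3 and COL11A2 (lower), and only with bleomycin COL6A1 and COL6A3 (lower). Such a split does not show a difference by itself, and the test of the difference is given with the models' comparison. Another 7 genes were tested and not called in either model, 6 were tested in neither, and the remaining 6 were tested in 1 model alone and higher there. These last 6, and COL10A1 in both models, passed the filter only through senescent groups, so their direction was largely set by it. COL26A1 passed only through DMSO groups in both models.

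**Figure D3:**
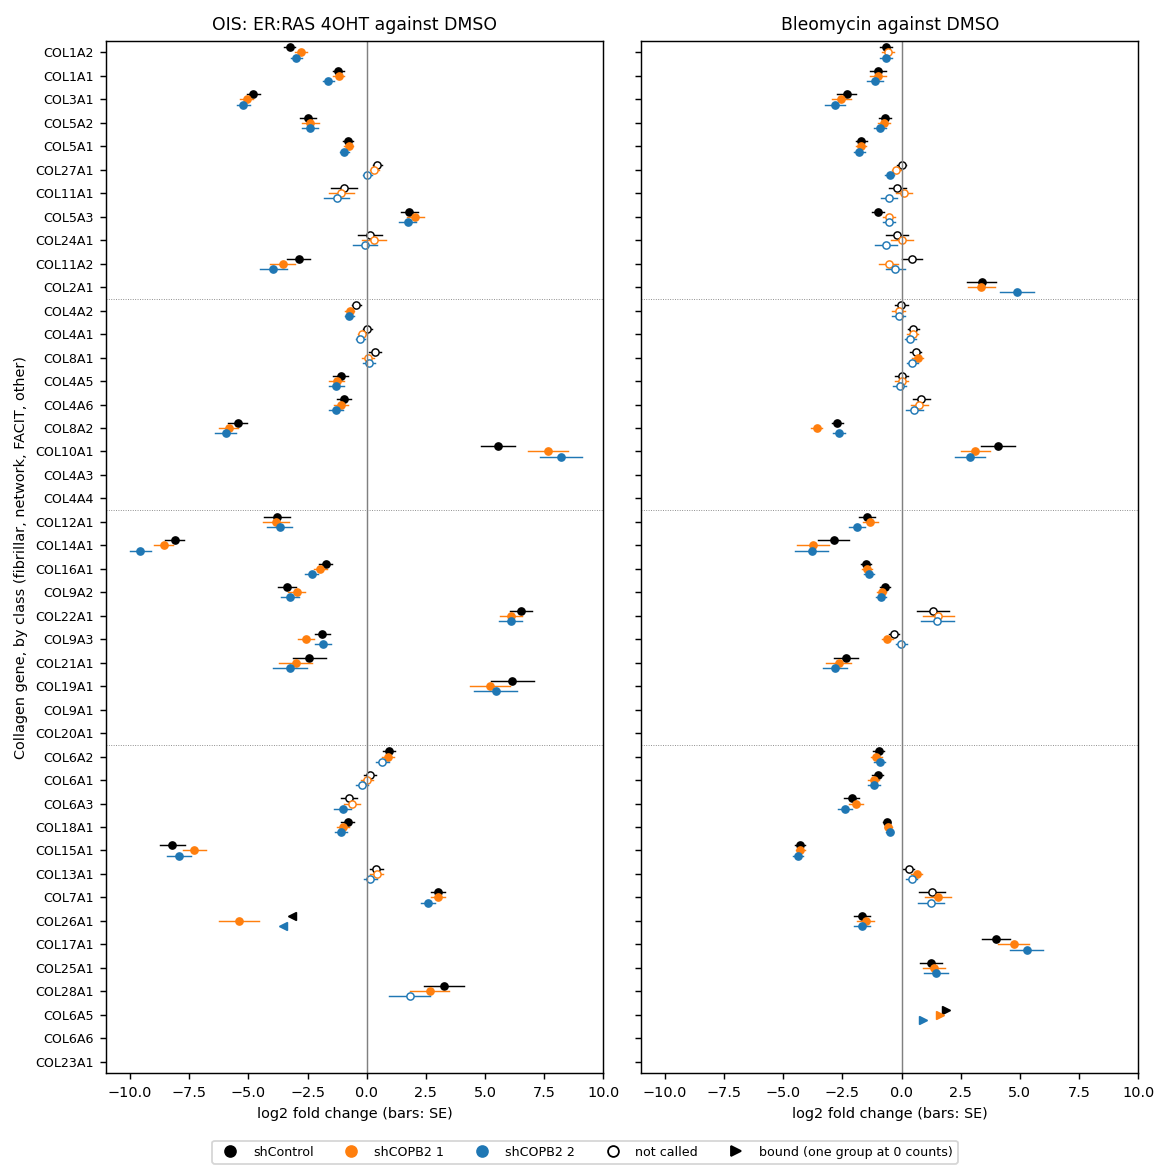
Points give the log2 fold change of each collagen gene in OIS (4OHT against DMSO in ER:RAS cells) and in bleomycin-induced senescence (bleomycin against DMSO in IMR90 cells), with bars of 1 SE, for the control shRNA and both COPB2 shRNAs. Open points were not called, triangles are bounds where a group had no counts, and blank rows were not tested. The 3 shRNA backgrounds lie close together for most genes, for example at -3.26 with the control shRNA for COL1A2 in OIS, and COL6A2 lies right of 0 in OIS (0.94) and left of it with bleomycin (-0.98).

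The type III chain fell furthest of the fibrillar collagens in both models. COL3A1 (chr2:188974373-189012746, GRCh38.p14, ENSG00000168542) stood at 2828, 2498 and 2133 CPM in the ER:RAS libraries with DMSO and at 118, 73.7 and 97.9 CPM in OIS. The groups lay far apart, a log2 fold change of -4.79 (SE of 0.28, adjusted p = 7.43e-09). IMR90 cells had 3509.5, 4361, 3929 and 3426 CPM with DMSO and 338, 1248, 409.7 and 1119.9 CPM with bleomycin, a change of -2.32 (SE of 0.41, adjusted p = 0.000158). Again no library overlapped, and the bleomycin libraries fell into a lower and a higher pair, replicates 1 and 3 against 2 and 4.

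The type I chains also fell, to unequal extents in OIS. COL1A2 (chr7:94394895-94431227, ENSG00000164692) was at 5560.4, 6067 and 4439 CPM with DMSO and 840.1, 424 and 536 CPM in OIS, a log2 fold change of -3.26 (SE of 0.24, adjusted p = 7.06e-08). COL1A1 (chr17:50184101-50201631, ENSG00000108821) was at 4174, 4749 and 3295 CPM with DMSO and 2493, 1535 and 1672 CPM in OIS, a log2 fold change of -1.199 (SE of 0.23, adjusted p = 0.00073). Neither pair of groups overlapped. With bleomycin both calls were near the threshold. COL1A1 went from 6007, 6069, 5144 and 4246 to 1804, 4357, 1900.3 and 2886 CPM, with a log2 fold change of -1.002 (SE of 0.34, adjusted p = 0.026). COL1A2 went from 7906, 7724, 7188 and 5653 to 3419.6, 6523, 3705 and 4895 CPM, with a log2 fold change of -0.65 (SE of 0.25, adjusted p = 0.0498). In both genes replicate 2 of the bleomycin group lay within the range of the DMSO libraries. Without any 1 of 6 of the 8 libraries (all but replicate 2 of bleomycin and replicate 4 of DMSO) neither gene was called, with adjusted p-values of up to 0.117 and 0.203, and COL1A2 also missed the threshold under 4 of the other settings.

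The ratio of both type I transcripts, per kilobase, separated the models, and was examined after the values had been seen. Type I collagen normally holds more of the chain that COL1A1 encodes than of the other. In all 21 libraries with DMSO the ratio of COL1A1 to COL1A2 per kilobase lay between 0.577 and 0.707. It was 2.77 ± 0.292 (SD, n = 3) in OIS with the control shRNA, 1.93 ± 0.176 with COPB2 shRNA 1 and 1.72 ± 0.194 with COPB2 shRNA 2. Every OIS library was above every DMSO library, and those with the control shRNA were above all 6 with a COPB2 shRNA. An exact two-sided permutation test gave p = 0.1 for each of these 5 comparisons within ER:RAS cells, which is the smallest it can give for 3 against 3 (adjusted over 14 comparisons, 0.175). With bleomycin the ratio was lower, at 0.493 ± 0.0606 (SD, n = 4) against 0.646 ± 0.0248 with the control shRNA, 0.445 ± 0.0734 against 0.621 ± 0.0345 with COPB2 shRNA 1 and 0.458 ± 0.0721 against 0.639 ± 0.0409 with COPB2 shRNA 2. Groups did not overlap, and the exact permutation test gave p = 0.0286 in each, the smallest possible for 4 against 4 (adjusted 0.133). No comparison of the ratio passed the threshold after adjustment. At these group sizes and over 14 comparisons none could have passed, however far apart the groups lay, so the adjusted p-values decide nothing.

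**Figure D4:**
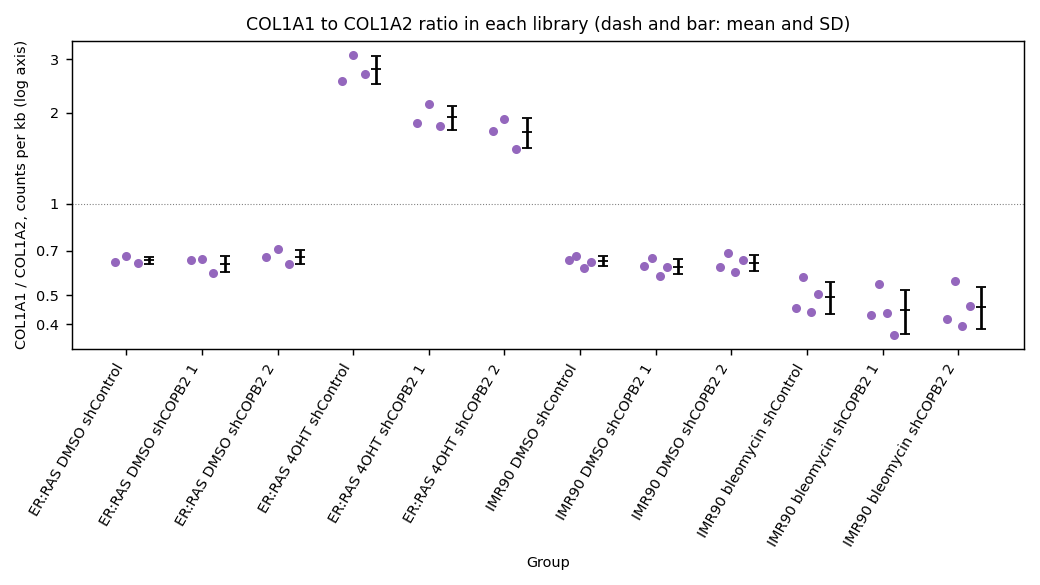
Each point is the ratio of COL1A1 to COL1A2 counts per kilobase of transcript in 1 library (log axis), with the mean and SD of each of the 12 groups beside it. The 4OHT groups of ER:RAS cells lie above 1 (2.77, 1.93 and 1.72), all DMSO groups between 0.577 and 0.707, and the bleomycin groups lower (0.493, 0.445 and 0.458).

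Type V collagen, which sits inside type I fibrils and limits their width, went separate ways by chain. COL5A2, which lies 19151 bases from COL3A1 on chromosome 2, fell in OIS by 2.49 on the log2 scale and with bleomycin by 0.70, the latter lost without 5 of the 8 libraries in turn. COL5A1 fell on the log2 scale by 0.80 in OIS and by 1.70 with bleomycin, and the OIS call was lost without replicate 2 of either group (adjusted p of up to 0.0697). COL5A3, at 7.03, 8.36 and 4.23 CPM with DMSO, was at 24.9, 23.3 and 24.3 CPM in OIS, a log2 fold change of 1.80 (SE of 0.35, adjusted p = 0.00089). The IMR90 libraries were at 7.06, 6.79, 6.55 and 6.79 CPM with DMSO and 3.88, 4.53, 2.82 and 2.54 CPM with bleomycin, a log2 fold change of -1.01 (SE of 0.26, adjusted p = 0.00447). The libraries did not overlap in either model, on opposite sides. The rise of COL5A3 in OIS was also called with both COPB2 shRNAs. Its fall with bleomycin was not called by the same test there, at -0.53 with each shRNA (adjusted p = 0.1125 and 0.1036). COL11A2, a chain of cartilage type XI collagen, stood at 1.57 ± 0.243 CPM (SD, n = 3) with DMSO. It fell by 2.87 on the log2 scale in OIS and was not called with bleomycin (log2 fold change 0.44). COL11A1 was not called in either model, with log2 fold changes of -0.96 in OIS and -0.18 with bleomycin. COL24A1 and COL27A1 had log2 fold changes between -0.19 and 0.45 and were not called.

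COL2A1, the chain of cartilage type II collagen, was a faint transcript that rose with bleomycin. It had 2, 2, 2 and 0 counts in the DMSO libraries and 19, 17, 15 and 15 counts with bleomycin, a ratio of scaled counts of 11.4 (95% interval 4.98 to 32.3), where the exact interval covers counting error only. In ER:RAS cells COL2A1 did not pass the filter.

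Among the network collagens with the control shRNA, COL4A1, COL4A2 and COL8A1 were not called in either model, COL4A5 and COL4A6 were called lower in OIS, COL8A2 was called lower in both and COL10A1 higher in both. COL4A1 and COL4A2 (ENSG00000187498 and ENSG00000134871) encode the most widespread chains of type IV collagen and lie head to head on chromosome 13, with 126 bases between them in the RefSeq annotation of GRCh38.p14. COL4A2 was at 304, 378 and 241 CPM with DMSO and 261, 194 and 267 CPM in OIS, a log2 fold change of -0.44 (SE of 0.19, adjusted p = 0.0869), and COL4A1 had a log2 fold change of 0.03 (SE of 0.20, adjusted p = 0.928). With bleomycin the log2 fold changes were -0.02 (SE of 0.28, adjusted p = 0.975) for COL4A2 and 0.49 (SE of 0.24, adjusted p = 0.129) for COL4A1. The bleomycin libraries with the control shRNA were wide apart for both, at 302, 506, 276 and 708 CPM for COL4A2 and 248, 376, 259 and 581 CPM for COL4A1, with replicates 2 and 4 the highest. The sign of the COL4A2 change depended on the libraries and scaling used.

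COL8A1, a chain of type VIII collagen found in vessel walls and the cornea, was at 86.6, 61.9 and 80.7 CPM with DMSO and 95.3, 91.4 and 125 CPM in OIS. These groups did not overlap, yet the gene was not called, with a log2 fold change of 0.34 (SE of 0.25, adjusted p = 0.33). With bleomycin its log2 fold change was 0.60 (SE of 0.23, adjusted p = 0.0565), which passed under 5 of 13 other settings. It passed without replicate 1 of the bleomycin group (0.77, adjusted p = 0.0245) or replicate 3 of the DMSO group (0.74, adjusted p = 0.0417). It also passed with the replicate number as a block (adjusted p = 0.0255). COL8A1 was called higher with COPB2 shRNA 1 (0.68) and not with COPB2 shRNA 2 (0.44). Its partner chain COL8A2 fell in both models. In OIS it went from 122, 149 and 118 counts to 1, 3 and 3 counts, a ratio of scaled counts of 41.5 (95% interval 19.96 to 104). It was at 8.97, 10.5, 8.80 and 9.42 CPM in IMR90 cells with DMSO and at 1.48, 1.55, 1.322 and 1.45 CPM with bleomycin, a log2 fold change of -2.73 (SE of 0.23, adjusted p = 3.18e-08). COL4A5 and COL4A6, the head-to-head pair on the X chromosome with 379 bases between them, fell by 1.10 and 0.95 on the log2 scale in OIS. These calls were lost without replicate 2 of the OIS group (and for COL4A6 also without either replicate 1), with adjusted p-values of up to 0.061 and 0.0911. With bleomycin their log2 fold changes were 0.01 and 0.84, which were not called.

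COL10A1, the type X chain otherwise known from hypertrophic cartilage, was the single collagen that was called higher in both models. It was at 0.255, 0.507 and 0.289 CPM in ER:RAS cells with DMSO and at 13.98, 12.4 and 25.3 CPM in OIS, a log2 fold change of 5.54 (SE of 0.73, adjusted p = 2.53e-05). IMR90 libraries had 1, 0, 2 and 0 counts with DMSO and 18, 10, 9 and 21 with bleomycin, a ratio of scaled counts of 20.1 (95% interval 6.54 to 100.3). No library overlapped in either model, though the level reached with bleomycin, 0.760 ± 0.266 CPM (SD, n = 4), was far under that in OIS, 17.2 ± 7.01 CPM (SD, n = 3). COL10A1 passed the filter on low counts only through senescent groups in both lines, so its direction was largely set by the filter. The 5 cartilage markers summed to 46.2 to 52.9 CPM in ER:RAS libraries with DMSO, 61.3 to 86.6 with 4OHT, 39.5 to 44.3 in IMR90 libraries with DMSO and 59.3 to 93.8 with bleomycin, mainly through SOX9, with the cartilage proteoglycan gene ACAN at or under 1.28 CPM throughout. COL2A1, a collagen described here, is itself 1 of these 5 markers and stayed at or under 1.54 CPM. The part of the markers in the rise of COL10A1 was not tested.

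Start regions of 5 genes are shown, 1 that a pair of chains shares, 1 of a gene that moved in opposite directions in the 2 models and 3 of genes that moved in 1 direction, each running from 250 bases before to 50 after an annotated start (RefSeq, GRCh38.p14, 5′ to 3′ on the strand of the gene). Capitals mark the letters of a CCAAT box, of the GC box GGGCGG, of the TATA box TATAAA and of the AP-1 element TGACTCA, or their reverse complements. COL4A2 (chr13:110307034-110307333, plus strand) shares its window with the first bases of COL4A1, which runs the other way. COL6A2 (chr21:46097862-46098161, plus strand) was higher in OIS and lower with bleomycin. COL12A1 (chr6:75206004-75206303, minus strand), COL15A1 (chr9:98943657-98943956, plus strand) and COL10A1 (chr6:116126083-116126382, minus strand, 1 of 3 annotated windows) were called in the same direction in both models.
COL4A2: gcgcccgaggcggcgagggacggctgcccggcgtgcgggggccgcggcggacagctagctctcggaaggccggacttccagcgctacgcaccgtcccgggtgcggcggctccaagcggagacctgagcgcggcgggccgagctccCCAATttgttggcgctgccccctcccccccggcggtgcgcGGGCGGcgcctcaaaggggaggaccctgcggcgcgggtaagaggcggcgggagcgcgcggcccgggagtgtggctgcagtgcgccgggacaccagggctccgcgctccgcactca
COL6A2: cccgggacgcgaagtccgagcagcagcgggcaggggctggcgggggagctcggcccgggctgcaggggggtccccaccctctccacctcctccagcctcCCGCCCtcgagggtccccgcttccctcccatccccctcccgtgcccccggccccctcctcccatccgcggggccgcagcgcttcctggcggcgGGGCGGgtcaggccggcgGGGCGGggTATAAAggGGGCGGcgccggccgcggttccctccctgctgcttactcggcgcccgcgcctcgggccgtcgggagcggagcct
COL12A1: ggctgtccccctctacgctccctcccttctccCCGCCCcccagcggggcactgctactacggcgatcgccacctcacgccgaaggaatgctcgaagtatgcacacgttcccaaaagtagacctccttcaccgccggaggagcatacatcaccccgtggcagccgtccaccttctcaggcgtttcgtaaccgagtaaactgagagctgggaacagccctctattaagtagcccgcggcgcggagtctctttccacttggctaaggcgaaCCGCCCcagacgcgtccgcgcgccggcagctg
COL15A1: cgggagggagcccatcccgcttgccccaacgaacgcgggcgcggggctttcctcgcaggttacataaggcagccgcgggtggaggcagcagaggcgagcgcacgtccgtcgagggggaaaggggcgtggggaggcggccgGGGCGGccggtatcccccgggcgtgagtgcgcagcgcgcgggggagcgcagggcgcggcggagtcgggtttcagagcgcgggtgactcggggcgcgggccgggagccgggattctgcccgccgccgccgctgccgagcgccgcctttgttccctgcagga
COL10A1: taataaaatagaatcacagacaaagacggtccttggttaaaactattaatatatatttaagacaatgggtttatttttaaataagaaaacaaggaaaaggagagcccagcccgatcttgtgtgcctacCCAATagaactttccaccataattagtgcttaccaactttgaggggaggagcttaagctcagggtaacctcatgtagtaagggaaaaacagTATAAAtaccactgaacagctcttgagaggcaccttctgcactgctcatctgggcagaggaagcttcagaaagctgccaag
The RefSeq table held a window for 32 of the 44 genes, 44 windows in all. CCAAT stood in 14 of these (31.8%) and in 34.6% of the 35116 windows of all genes, GGGCGG in 24 (54.5%) and in 45.0%, and TATAAA in 8 (18.2%) and in 11.5%, on either strand. TGACTCA stood in 0 of the 44 windows and in 4.95% of all, which says only that these letters were not within this span. These shares describe letters and not bound sites. Of the windows shown, COL6A2 and COL10A1 hold a TATAAA shortly before the start, and COL15A1 and COL12A1 hold GC boxes and none of the other 3 motifs.

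FACITs, which coat fibrils and link them to other matrix, held some of the steepest falls. COL12A1 (on chr6, ENSG00000111799) was at 721, 466 and 548 CPM with DMSO and 23.8, 29.7 and 78.8 CPM in OIS, a log2 fold change of -3.79 (SE of 0.54, adjusted p = 6.08e-05). In IMR90 cells it was at 791, 1225, 909 and 917 CPM with DMSO and 175, 426, 256 and 567 CPM with bleomycin, a log2 fold change of -1.47 (SE of 0.33, adjusted p = 0.00159). Groups did not overlap in either line.

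COL14A1 (ENSG00000187955), the type XIV chain that regulates fibril growth, was nearly lost in OIS. It was at 105, 92.5 and 66.1 CPM with DMSO and at 0.180, 0.462 and 0.317 CPM in OIS, a log2 fold change of -8.12 (SE of 0.41, adjusted p = 1.61e-09). With bleomycin it went from 156, 309, 193 and 251 CPM to 6.41, 39.4, 8.91 and 73.1 CPM, a log2 fold change of -2.87 (SE of 0.66, adjusted p = 0.00185). All libraries of both treated groups were below their DMSO groups, and replicates 2 and 4 of the bleomycin group were several times above replicates 1 and 3, as for COL3A1.

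COL16A1, another FACIT of fibroblasts, fell in both models, from 100.2, 108 and 106 to 51.1, 20.9 and 29.9 CPM in OIS, a log2 fold change of -1.74 (SE of 0.27, adjusted p = 0.000104). With bleomycin it went from 104, 172, 118 and 123 to 37.1, 43.3, 41.3 and 64.4 CPM, a log2 fold change of -1.51 (SE of 0.20, adjusted p = 8.51e-06). The difference between both responses was -0.15 (SE of 0.33, adjusted p = 0.826), which was not called. The scarcer COL9A2 and COL21A1 also fell in both models, by 3.36 and 2.43 in OIS and by 0.71 and 2.34 with bleomycin on the log2 scale. The OIS call of COL21A1 was lost without replicate 2 of the OIS group (adjusted p = 0.0637). COL9A3 fell by 1.87 on the log2 scale in OIS and was not called with bleomycin (log2 fold change -0.32).

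COL22A1 and COL19A1, a pair of FACITs with little transcript in untreated cells, rose in OIS. COL22A1 (ENSG00000169436), known from tissue junctions such as that of muscle and tendon, went from 0.255, 0.127 and 0.0481 CPM to 16.6, 11.6 and 16.1 CPM, a log2 fold change of 6.53 (SE of 0.47, adjusted p = 5.49e-08). COL19A1 (ENSG00000082293) had 3, 0 and 0 counts with DMSO and 36, 52 and 110 in OIS, a ratio of scaled counts of 88.3 (95% interval 29.8 to 432). With bleomycin COL22A1 stood at 0.718, 1.15, 0.632 and 2.75 CPM against 0.718, 0.642, 0.0978 and 0.579 CPM and was not called, with a log2 fold change of 1.34 (SE of 0.67, adjusted p = 0.144). Replicate 4 was the highest of its group there, and without it the log2 fold change was 0.72. COL19A1 did not pass the filter in IMR90 cells.

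Of the chains of type VI collagen, the most abundant of the remaining class, COL6A2 rose in OIS and fell with bleomycin. COL6A2 (on chr21, ENSG00000142173) was at 3568, 4818 and 3179 CPM with DMSO and 10517, 6621 and 6612 CPM in OIS, a log2 fold change of 0.94 (SE of 0.26, adjusted p = 0.011). The lowest OIS library was above the highest DMSO library. The call was lost when only the 6 libraries compared were fitted (adjusted p = 0.0851). In IMR90 cells COL6A2 went from 4050.3, 3012, 2574 and 2980.4 CPM to 1584, 2199, 1298 and 1459 CPM with bleomycin, a log2 fold change of -0.98 (SE of 0.23, adjusted p = 0.00241), without overlap.

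COL6A1, which lies 93063 bases from COL6A2 on chromosome 21, was at 3057, 4489 and 2623 CPM with DMSO and 4780.3, 3619 and 3449 CPM in OIS. These groups overlapped, with a log2 fold change of 0.13 (SE of 0.25, adjusted p = 0.746). With bleomycin it fell from 3147, 2931, 2746 and 2801 to 1173, 2190.4, 1016 and 1530.2 CPM, a log2 fold change of -1.01 (SE of 0.23, adjusted p = 0.00217). COL6A3, the largest of the chains, on chromosome 2, was at 1714, 1517 and 993 CPM with DMSO and 615, 667 and 1378 CPM in OIS, where replicate 3 lay among the DMSO libraries, and was not called with a log2 fold change of -0.74 (SE of 0.35, adjusted p = 0.113). Without replicate 3 that fold change was -1.19 (adjusted p = 0.00891). With bleomycin it went from 2160.1, 3155, 1929 and 2149 to 309, 681, 424 and 806 CPM, a log2 fold change of -2.12 (SE of 0.30, adjusted p = 1.7e-05), the steepest of the 3 chains. In OIS the 3 chains thus stood at 2298 ± 654 (COL6A2), 939.7 ± 172 (COL6A1) and 84.2 ± 40.5 CPM per kb (COL6A3, SD, n = 3), and in the matching DMSO group at 1119 ± 249, 806 ± 232 and 134 ± 35.4.

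COL15A1 (on chr9, ENSG00000204291), a multiplexin of the basement membrane zone, had the largest fitted fall of all 36 members tested with bleomycin and of all 34 in OIS, where COL14A1 and COL26A1 came within its SE, the latter with 0 counts in all 3 OIS libraries. It was at 99.01, 98.04 and 87.1 CPM with DMSO and 0.271, 0.198 and 0.507 CPM in OIS, a log2 fold change of -8.22 (SE of 0.52, adjusted p = 1.43e-08). In IMR90 cells it was at 87.97, 90.7, 87.3 and 77.1 CPM with DMSO and 3.11, 5.50, 3.39 and 5.75 CPM with bleomycin, a log2 fold change of -4.30 (SE of 0.20, adjusted p = 4.68e-12). Treated and untreated libraries did not overlap in either line, and the treated libraries had an SD of 0.161 CPM in OIS and 1.38 CPM with bleomycin. COL18A1, the related multiplexin whose cleavage releases endostatin, fell on the log2 scale by 0.81 in OIS and by 0.62 with bleomycin. In OIS that call was lost without 4 of the 6 libraries in turn (adjusted p of up to 0.15) and under 4 other settings.

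COL7A1, the chain of the anchoring fibrils that tie epithelial basement membranes to the dermis, rose in OIS from 6.67, 4.94 and 7.55 CPM to 67.8, 39.3 and 58.8 CPM, a log2 fold change of 3.002 (SE of 0.29, adjusted p = 1.25e-06). With bleomycin it was at 7.48, 15.8, 11.003 and 10.9 CPM without and 15.99, 13.1, 22.3 and 60.3 CPM with treatment and was not called, with a log2 fold change of 1.27 (SE of 0.55, adjusted p = 0.0866). Replicate 4 was the high library, as for CXCL8 above, and without it the log2 fold change was 0.58 (adjusted p = 0.444), whereas without replicate 2 it was 1.50 and just past the threshold. COL26A1, a chain with little known function, had 35, 37 and 36 counts with DMSO and 0 in all 3 OIS libraries, at least 8.89-fold lower against a floor of 3 counts per library. With bleomycin it fell from 0.538, 1.33, 1.61 and 1.53 to 0.383, 0.516, 0.287 and 0.415 CPM, a log2 fold change of -1.67 (SE of 0.36, adjusted p = 0.00097). COL28A1, at 0, 1 and 3 counts with DMSO, had 11, 9 and 13 counts in OIS, a ratio of scaled counts of 11.04 (95% interval 3.93 to 42.9). The transmembrane chain COL13A1 was not called in either model (log2 fold changes 0.40 and 0.29).

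Of the 5 collagens called higher with bleomycin among 36 tested, where 15.4% of all genes were, 3 are taken here. All 5 (COL2A1, COL6A5, COL10A1, COL17A1 and COL25A1) passed the filter on low counts only through the bleomycin groups, so their direction was largely set by the filter. COL25A1 reached 14 counts with DMSO, but in too few libraries to pass. COL26A1, called lower, passed only through the DMSO groups. COL17A1, a transmembrane collagen of epithelial hemidesmosomes, went from 0.0598, 0.0459, 0.196 and 0 CPM to 1.58, 1.83, 1.03 and 0.881 CPM, a log2 fold change of 3.99 (SE of 0.58, adjusted p = 2.15e-05). COL6A5, a chain that can take the place of COL6A3 in type VI collagen, had 0 counts in the 4 DMSO libraries and 9, 5, 16 and 12 counts with bleomycin, at least 3.64-fold higher against a floor of 3 counts per library. COL25A1, a transmembrane collagen of neurons, went from 0.120, 0.413, 0.440 and 0.632 to 0.909, 0.459, 1.38 and 1.19 CPM with overlap, a log2 fold change of 1.23 (SE of 0.47, adjusted p = 0.0486) that was lost without 6 of the 8 libraries in turn (adjusted p of up to 0.135).

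Collagens that the filter removed were counted as well. In each bleomycin library 35 to 44 of the 44 collagen genes had more than 3 counts (median 39.5), against 31 to 33 in IMR90 libraries with DMSO, 29 to 34 in ER:RAS libraries with 4OHT and 30 to 32 in those with DMSO. The same was so for all genes, of which 15569 to 16244 had more than 3 counts in bleomycin libraries, 14522 to 15409 in IMR90 libraries with DMSO, 13683 to 14473 with 4OHT and 14017 to 14963 in ER:RAS libraries with DMSO, so more genes of other kinds were also over the floor. Bleomycin libraries were not deeper, with totals of 15580424 to 19409645 counts against 16199276 to 23597310 in IMR90 libraries with DMSO. Among the 8 collagens filtered out in IMR90 cells, the edgeR test without the filter called 6 higher and 0 lower with the control shRNA, 5 higher with COPB2 shRNA 1 and 3 higher with COPB2 shRNA 2, and DESeq2 called 5, 5 and 3. The share called among all genes that the filter removed was not counted, so these calls do not set collagens apart from other faint genes. In ER:RAS cells 9 of the 10 collagens filtered out had any count. Both tools called 0 of them in OIS with the control shRNA, where COL17A1 alone had an unadjusted edgeR p under 0.05, and both called COL17A1 alone higher with each COPB2 shRNA. COL17A1 had 3, 0 and 1 counts with DMSO and 2, 5 and 6 in OIS with the control shRNA, 0, 0 and 1 against 3, 9 and 6 with COPB2 shRNA 1 (edgeR adjusted p = 0.00573), and 0, 0 and 0 against 8, 5 and 10 with COPB2 shRNA 2 (edgeR adjusted p = 0.0012). In IMR90 cells COL6A6, a further type VI chain, had 0, 0, 0 and 0 counts with DMSO and 4, 5, 10 and 8 with bleomycin. COL4A3, a type IV chain of kidney and lung basement membranes, had 0, 0, 0 and 1 and 6, 2, 8 and 6 counts. COL23A1, a transmembrane chain, had 0, 2, 0 and 0 and 5, 7, 5 and 5 counts. All of these counts are close to the floor.

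**Figure D5:**
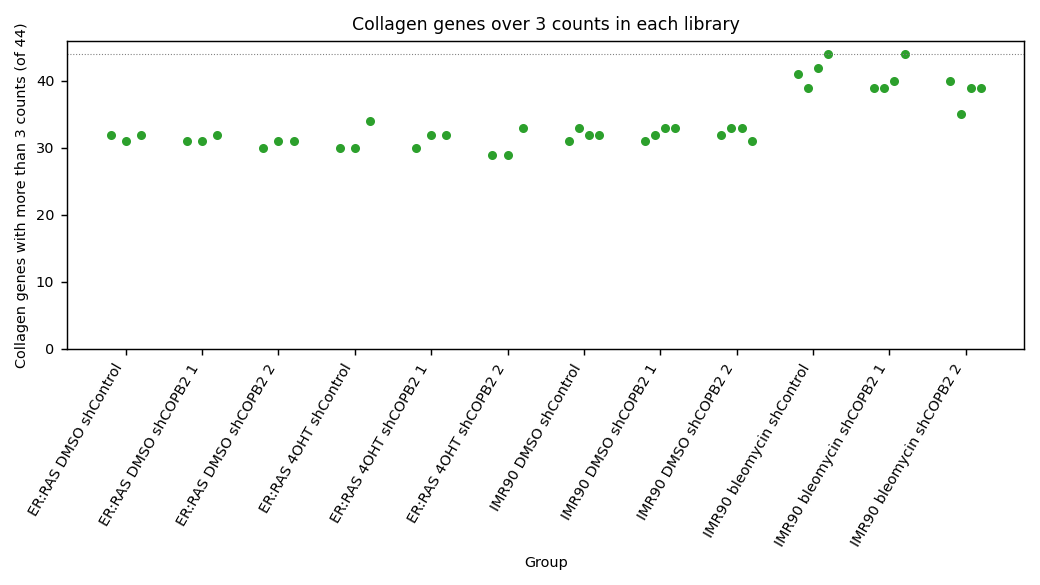
Each point is the number of the 44 collagen genes with more than 3 counts in 1 library, by group, and the dotted line marks 44. Bleomycin libraries lie between 35 and 44, above all other libraries, which lie between 29 and 34.

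The senescence responses were then compared across the 3 shRNA backgrounds, whose libraries are separate. In OIS 7 collagens were higher and 19 lower with COPB2 shRNA 1 (15.4% and 21.5% of all genes) and 5 higher and 20 lower with COPB2 shRNA 2 (14.9% and 22% of all genes). With bleomycin 8 were higher and 17 lower with COPB2 shRNA 1 (17.4% and 17.8% of all genes) and 5 higher and 18 lower with COPB2 shRNA 2 (21.7% and 18.3% of all genes). In OIS 23 of the 34 genes tested were called in all 3 backgrounds (5 higher, 18 lower), 4 in 1 or 2 of them and 7 in none, and the treated and untreated libraries of those 23 did not overlap in any background. With bleomycin 21 of 36 were called in all 3 (5 higher, 16 lower), 7 in 1 or 2 and 8 in none, and 17 of the 21 had no overlap in any background. The shares of all genes called in all 3 backgrounds, or without overlap, were not counted. These counts therefore do not show whether collagens were more alike across backgrounds than other genes. The filter was applied once over all groups of a line, so it largely set the direction of some of these genes in every background. In OIS these were COL10A1, COL19A1 and COL22A1 (higher) and COL8A2, COL11A2, COL14A1, COL15A1, COL21A1 and COL26A1 (lower). With bleomycin they were all 5 higher genes and COL26A1 (lower).

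COL6A2 in OIS had log2 fold changes of 0.90 (SE of 0.26, adjusted p = 0.0138) with COPB2 shRNA 1 and 0.66 (SE of 0.26, adjusted p = 0.0601) with COPB2 shRNA 2, and the latter passed with the replicate number as a block (adjusted p = 0.00777). COL11A1 was not called in these fits, with log2 fold changes of -1.08 and -1.27, and was called lower with the block in both (adjusted p = 0.0028 and 0.00194). COL4A2 fell on the log2 scale by 0.71 (adjusted p = 0.0082) and by 0.75 (adjusted p = 0.00616) in OIS with the COPB2 shRNAs. COL1A1 with bleomycin fell on the log2 scale by 0.99 (adjusted p = 0.0252) and 1.12 (adjusted p = 0.011), close to the value with the control shRNA, and COL1A2 had log2 fold changes of -0.58 (SE of 0.25, adjusted p = 0.0729) and -0.66 (SE of 0.25, adjusted p = 0.0365).

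The OIS response was tested against the bleomycin response in a single fit of all 42 libraries, with the control shRNA. Of 38 collagens tested, 7 had a higher value in OIS and 12 a lower value, where 8.14% and 12.1% of all 15299 genes did. The higher values belonged to COL19A1, COL22A1, COL5A3, COL6A2, COL6A3, COL6A1 and COL5A1, and the lower values to COL26A1, COL14A1, COL15A1, COL11A2, COL8A2, COL9A2, COL1A2, COL3A1, COL12A1, COL4A6, COL5A2 and COL9A3. COL19A1 passed the filter only through the 4OHT groups, so its direction was largely set by the filter. COL26A1 had at most 1 count in each 4OHT library and passed only through DMSO groups, which limits its value in the same way. On the log2 scale COL14A1 differed by -5.19 (SE of 0.97, adjusted p = 0.000162) and COL15A1 by -3.86 (SE of 0.41, adjusted p = 1.6e-08), so these were lower in both models and further down in OIS. COL3A1 differed by -2.40 (SE of 0.53, adjusted p = 0.00114) and COL1A2 by -2.54 (SE of 0.37, adjusted p = 4.4e-06), while COL1A1 differed by -0.13 (SE of 0.46, adjusted p = 0.904), which was not called. All 3 main type VI chains had higher values in OIS, with 1.197 (SE of 0.37, adjusted p = 0.0179) for COL6A1, 1.99 (SE of 0.37, adjusted p = 0.000171) for COL6A2 and 1.41 (SE of 0.45, adjusted p = 0.0218) for COL6A3. COL5A3 differed by 2.87 (SE of 0.44, adjusted p = 9.09e-06). COL10A1 differed by 1.54 (SE of 1.42, adjusted p = 0.52) and COL7A1 by 1.80 (SE of 0.70, adjusted p = 0.0644), which were not called.

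The next question was whether knocking down COPB2 altered collagen transcripts. The edgeR quasi-likelihood test called 0 collagen genes in each of the 8 comparisons of a COPB2 shRNA with the control shRNA and in the 4 with both shRNAs averaged, and DESeq2 also called 0. With p under 0.05 and no adjustment edgeR picked 1, 1 and 1 of 34 collagens in ER:RAS cells with DMSO (shRNA 1, shRNA 2 and both averaged). With 4OHT it picked 0, 2 and 1. In IMR90 cells it picked 2, 1 and 0 of 36 with DMSO and 1, 1 and 1 with bleomycin. At this threshold it picked 116, 133 and 137 of all 14297 genes in ER:RAS cells with DMSO and 462, 640 and 735 with 4OHT. Of all 14783 genes in IMR90 cells it picked 165, 166 and 167 with DMSO and 208, 997 and 433 with bleomycin. Few genes of any kind were called, namely 0.00699%, 0.00699% and 0.014% of all genes in ER:RAS cells with DMSO, 0.14%, 0.224% and 0.266% with 4OHT, 0.00676% in each of the 3 comparisons in IMR90 cells with DMSO, and 0.00676%, 0.0744% and 0.0474% with bleomycin. With both shRNAs averaged, fitted changes were below 0 for 18 of 34 collagens in ER:RAS cells with DMSO and 27 of 34 in OIS. In IMR90 cells they were below 0 for 28 of 36 with DMSO and 30 of 36 with bleomycin. The median log2 fold changes were -0.007, -0.20, -0.13 and -0.22 in this order, against -0.002, -0.08, -0.01 and 0.02 over all genes. The share of all genes below 0 was not counted, and this lean was not tested.

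The 13 collagens that averaged at least 100 CPM show the size of the fitted effects on abundant chains. With COPB2 shRNA 1 their log2 fold changes ran from -0.18 (COL6A2) to 0.17 (COL4A2) in ER:RAS cells with DMSO, from -0.39 (COL3A1) to 0.39 (COL1A2) in OIS, from -0.57 (COL6A3) to -0.04 (COL8A1) in IMR90 cells with DMSO and from -0.49 (COL3A1) to 0.04 (COL8A1) with bleomycin. With COPB2 shRNA 2 they ran from -0.18 (COL5A2) to 0.21 (COL5A1), -0.56 (COL3A1) to 0.42 (COL1A2), -0.29 (COL6A3) to -0.0031 (COL8A1) and -0.64 (COL3A1) to -0.0041 (COL6A2) in the same order. Their SEs were 0.19 to 0.49 in ER:RAS cells and 0.15 to 0.39 in IMR90 cells. With the replicate number as a block the SEs were 0.15 to 0.30 and 0.092 to 0.298, and none of the 13 was called (lowest adjusted p = 0.172 in ER:RAS and 0.399 in IMR90 cells). COL3A1 was the lowest of the 13 in all 4 comparisons of senescent cells, where both shRNAs share their control libraries. It was at 102, 65.8 and 55.4 CPM with shRNA 1 and 82.2, 67.8 and 48.7 CPM with shRNA 2 in OIS, against 118, 73.7 and 97.9 CPM with the control shRNA. With bleomycin, where same-numbered libraries deviated together, it was at 279.6, 1065, 474 and 374 CPM with shRNA 1 and 270.1, 721, 376 and 634 CPM with shRNA 2 against 338, 1248, 409.7 and 1119.9 CPM in replicates 1 to 4, so it was lower in 3 of 4 and in 4 of 4 pairs. With the block the log2 fold changes were -0.49 (SE of 0.30, adjusted p = 0.9996) and -0.58 (SE of 0.30, adjusted p = 0.447). COL1A1, looked at after its values were seen, was also lower in 3 of 4 and in 4 of 4 pairs, with blocked log2 fold changes of -0.44 (SE of 0.25, adjusted p = 0.9996) and -0.31 (SE of 0.25, adjusted p = 0.619). In OIS COL1A2 was the highest of the 13 with both shRNAs, at 845, 791 and 734 CPM with shRNA 1 and 715, 951 and 761 CPM with shRNA 2, against 840.1, 424 and 536 CPM, with changes of 0.39 (SE of 0.22, adjusted p = 1) and 0.42 (SE of 0.22, adjusted p = 1). The groups of COL1A2 and of COL3A1 overlapped.

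Lastly, 63 genes that make, bind, sense or break down collagen were followed in 7 lists, which hold no collagen genes. In OIS 10 were higher and 19 lower of 59 tested (15.4% and 20.2% of all genes), and with bleomycin 10 higher and 18 lower of 60 (15.4% and 15.8%). Of the proteins that bind fibrils, mostly small leucine-rich proteoglycans, 6 of 9 tested were lower in each model (66.7%) and none was higher, with median log2 fold changes of -4.25 in OIS and -1.78 with bleomycin. LUM, which encodes lumican, a spacer of fibrils, fell on the log2 scale by 3.99 in OIS and by 1.197 with bleomycin, and ASPN, which encodes asporin, was at 0 counts in the OIS libraries with the control shRNA, at least 9.83-fold lower against a floor of 3 counts per library, and fell by 3.76 with bleomycin. Of the 5 lysyl oxidases, which cross-link collagen, 3 were lower in OIS and none higher, among them LOXL1 with a log2 fold change of -1.82. With bleomycin 3 were lower, with LOXL1 at a log2 fold change of -1.04, and 1 higher, LOX at 0.75.

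Of 15 genes for prolyl and lysyl modification of the chains, 4 were higher (26.7%, against 15.4% of all genes) and 3 lower (20%, against 20.2%) in OIS, and 4 were higher (26.7%, against 15.4%) and 0 lower (against 15.8%) with bleomycin. P4HA2, a subunit of prolyl 4-hydroxylase, had a log2 fold change of 2.35 in OIS and COLGALT2, which adds galactose to hydroxylysine, had -1.11. With bleomycin P3H2, a prolyl 3-hydroxylase, had a log2 fold change of 1.55 and the lysyl hydroxylase PLOD1 0.61. Among 10 genes for chaperones and export from the endoplasmic reticulum, 1 was higher and 2 lower in OIS (10.0% and 20%) and 1 higher and 1 lower with bleomycin (10.0% each), none of these shares above that of all genes. SERPINH1, the collagen chaperone HSP47, fell on the log2 scale by 0.87 with bleomycin, and TMEM38B, an ion channel of the endoplasmic reticulum, had fold changes on that scale of 1.49 in OIS and 0.99 with bleomycin.

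Outside the cell, 1 of 6 genes for propeptide removal was higher (16.7%) and 2 lower (33.3%) in OIS, and 1 of 7 higher (14.3%) and 2 lower (28.6%) with bleomycin. In lists this short 1 gene is at least 14.3% of the list, and the shares were not tested. PCOLCE, which speeds the removal of the carboxyl propeptide, fell on the log2 scale by 3.35 and 3.66, whereas the protease ADAMTS14 had a log2 fold change of 1.87 in OIS and TLL2 2.49 with bleomycin. Of 7 collagen receptors 1 was higher and 1 lower in each model (14.3% each), under the shares of all genes. ITGA2, an integrin subunit that binds collagen, had log2 fold changes of 2.04 in OIS and 2.34 with bleomycin, ITGA10 had -2.02 in OIS and ITGA11 -1.37 with bleomycin. Of 7 genes for collagen degradation, 3 were higher (42.9%) and 2 lower (28.6%) in OIS, and 2 higher (28.6%) and 5 lower (71.4%) with bleomycin. MMP1, the interstitial collagenase that cleaves fibrillar collagen, rose furthest, with log2 fold changes of 7.65 and 5.31, while CTSK (cathepsin K) had -1.80 in OIS and MMP2 (gelatinase A) -1.83 with bleomycin. With the COPB2 shRNAs, edgeR called 0 of the 59 genes tested in ER:RAS cells and 0 of the 60 tested in IMR90 cells in any of the 12 knockdown comparisons, DESeq2 also called 0, and 0 to 2 genes had an unadjusted p under 0.05 in each.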

How the data were processed

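The authors deposited raw read counts per gene symbol, with no normalization, for 42 libraries. The submitters' processing notes name DRAGEN, STAR 2.7.8a, DESeq2 1.32.0 and hg38, while the study's methods describe Tophat, hg19 and HTSeq, so the aligner and build behind the counts are not settled. Reads of 7 antisense or divergent partner symbols of collagen genes reached at most 0.902 CPM.

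Libraries were grouped by their labels. After filterByExpr had dropped genes with low counts and TMM had scaled the libraries, groups were compared with the quasi-likelihood test of edgeR 4.0.16 (robust, two-sided, R 4.3.3) in 3 fits: 18 ER:RAS libraries (14297 genes, 34 collagens), 24 IMR90 libraries (14783 genes, 36 collagens) and all 42 (15299 genes, 38 collagens). The p-values were adjusted by Benjamini-Hochberg over every gene in the fit, and called means an adjusted p-value under 0.05. Values are given as CPM from the 42-library scaling, as mean ± SD, and SEs come from the edgeR fit. A floor of 3 counts is 0.127 to 0.228 CPM. Where a group had 0 counts a bound is given against it, and where a group had at most 3 counts per library the ratio of scaled counts is given with an exact 95% interval. Floors and intervals cover counting error only, since reads carry no molecular identifiers. Positions, neighbours and start regions come from RefSeq on GRCh38.p14. Transcript lengths, used for values per kilobase, are summed exons of the canonical transcript in a GENCODE annotation lifted to the earlier genome build. Ensembl identifiers come from the same annotation.

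The members, classes, pathway lists and markers were chosen with earlier results of these data known. Given with all their libraries are the 3 collagens per class with the highest mean CPM and, in each control-shRNA senescence contrast, the 3 called collagens that were furthest up and the 3 furthest down, with others named as members. Per pathway list, the called genes with the largest and smallest change are named.

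Replicate numbers come from the labels. Same-numbered libraries deviated together (all correlations of deviations over 0.1) between treated and untreated ER:RAS cells with COPB2 shRNA 1 (0.471 to 0.791) and 2 (0.534 to 0.798), between each COPB2 shRNA and the control shRNA in bleomycin-treated cells (0.425 to 0.782), and between COPB2 shRNA 2 and the control in IMR90 cells with DMSO (0.178 to 0.727), and not in the control-shRNA senescence contrasts (-0.614 to 0.588). Alternatives were DESeq2 size factors, no filter, the DESeq2 1.42.0 Wald test, a block on the replicate number, a fit of only the compared libraries, and leaving out each library in turn. DESeq2 size factors moved the median of all genes by 0.12 in OIS and by 0.04 with bleomycin on the log2 scale.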

Additional observations from a re-analysis of the deposited data

Results flagged for a closer look

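The OIS response minus the bleomycin response differed from 0 for 19 collagen genes (edgeR quasi-likelihood interaction, adjusted p under 0.05), in log2 units. Lower in OIS were COL26A1 (-6.52, a fitted value that depends on the prior count because the OIS libraries had 0 counts), COL14A1 (-5.19), COL15A1 (-3.86), COL11A2 (-3.26), COL8A2 (-2.67), COL9A2 (-2.59), COL1A2 (-2.54), COL3A1 (-2.40), COL12A1 (-2.28), COL4A6 (-1.74), COL5A2 (-1.73) and COL9A3 (-1.49). Higher were COL19A1 (5.74, passing the filter only through the 4OHT groups), COL22A1 (5.26), COL5A3 (2.87), COL6A2 (1.99), COL6A3 (1.41), COL6A1 (1.197) and COL5A1 (0.96). The models differ in cell line and treatment at once.

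Single libraries lay far from the rest of their group of 4 in 9 of 124 groups examined, where chance alone gives about 1 in 20. In bleomycin-treated cells these were COL1A1 with COPB2 shRNA 2 (replicate 2 at 3487 CPM, others 1684 to 1861), COL4A2 with COPB2 shRNA 2 (replicate 4 at 468, others 331 to 354) and COL6A1 with COPB2 shRNA 1 (replicate 2 at 1792, others 938 to 1063). COL22A1 was high in replicate 4 with COPB2 shRNA 1 (4.79 CPM, others 0.637 to 0.902) and with COPB2 shRNA 2 (2.42, others 0.679 to 0.818), the libraries with high CXCL8. In IMR90 cells with DMSO and COPB2 shRNA 2 these were COL16A1 (replicate 2 at 144 CPM, others 106 to 111), COL6A3 (replicate 2 at 2645, others 1591 to 1709), COL6A2 (replicate 1 at 3927, others 2585 to 2763) and COL6A1 (replicate 1 at 3452, others 2429 to 2578).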

How the results depend on the processing

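Of the counts of called collagens, that of genes higher with bleomycin (5) moved by more than 1.5 times, to 10 without the filter, 12 with the Wald test of DESeq2, 3 with only the libraries compared, and 5 to 8 when single libraries were left out (8 without replicate 2 of the bleomycin group). The others stayed within that range under every setting run. Without 1 library the counts ran from 13 to 19 for those lower in OIS (18), 15 to 18 for those lower with bleomycin (18) and 16 to 20 for the difference between models (19). The 7 higher in OIS were 7 throughout. Of the 25 collagens called in OIS, 19 were called under all settings, as were 19 of the 23 with bleomycin. The sign of 2 changes that were not called turned: COL4A1 in OIS (-0.12 without replicate 3 of the OIS group, -0.12 to 0.24 over all libraries left out) and COL4A2 with bleomycin (0.0274 with DESeq2 size factors, 0.0264 with the Wald test, 0.0251 with only the libraries compared, and -0.28 to 0.17 without single libraries). The cause was not tested.

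With the replicate number as a block, 8 collagens were higher and 20 lower in OIS, 27 were called with COPB2 shRNA 1 and 27 with COPB2 shRNA 2, 7 were higher and 18 lower with bleomycin, 28 and 25 were called with the COPB2 shRNAs, and 21 differed between the models. The knockdown comparisons stayed at 0. Where the numbers did pair the libraries, the block changed no call of a collagen other than those of COL6A2 and COL11A1 given above. Genes near the floor, 13 of which averaged under 1 CPM, are limited by depth.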
